A study of Mus musculus with 6 samples.

Results

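Fibroblast and non-collagen matrix genes were followed in mouse induced pluripotent stem cells (iPSCs) that lack miR-34a and in wild-type iPSCs. The set holds 35 genes of 41388 gene rows in the count table. They were listed by their roles in mesenchymal cells and the extracellular matrix, with no measured value in the rule. The list was drawn up with earlier results of these data known, so it is not an independent choice. All 35 were found by symbol. Of these, 34 passed the filter on low counts and were tested. Lum, which encodes the proteoglycan lumican, did not pass: its counts were 0 in every knockout line, and 0, 1 and 2 in wild-type lines 1 to 3.

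The knockout group was 3 iPSC lines of genotype miR-34a-/- and the other group was 3 wild-type iPSC lines. All 6 lines were C57BL/6, were reprogrammed from fibroblasts of littermate embryos at embryonic day 13.5 with pMX retroviruses carrying mouse Oct4, Sox2 and Klf4, and were kept on irradiated embryonic fibroblast feeders in serum medium, per the labels' protocols. Each line came from a single picked colony, and the deletion was present in every cell from the embryo on, so a line stands for 1 clone of its genotype. Poly(A) RNA was sequenced in 1 library per line, and the comparison asks how pluripotent cells without this p53-induced microRNA differ from wild-type cells.

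The extracellular matrix is a mesh of secreted proteins that fibroblasts and other mesenchymal cells deposit and that integrins, the matrix receptors, tie to the cytoskeleton. Fibronectin and collagens form its fibrils, fibrillins and elastin its elastic fibres, and lysyl oxidases cross-link them. Matricellular proteins such as periostin and thrombospondins sit in the mesh and change how cells attach and signal. Mouse pluripotent cells are epithelial and make basement membrane and fibronectin themselves, while the fibroblasts under them make a full interstitial matrix.

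Total counts ranged from 8721581 to 29654855 in the knockout libraries and from 8432597 to 25698286 in the wild-type libraries. Mir34a itself had 1, 0 and 0 counts in knockout lines 1 to 3, against 2, 0 and 0 counts in wild-type lines 1 to 3, and counts this low do not check the labels. Pluripotency genes were abundant in both genotypes, with a summed level of Pou5f1, Nanog and Sox2 of 1969 to 2185 CPM in knockout lines and 1549 to 1701 CPM in wild-type lines. Levels are in CPM, the count of a gene scaled to a fixed total over all genes of its library, after TMM scaling to a common size. Fold changes set knockout lines over wild-type lines on the log2 scale with a standard error (SE), and a gene was called higher or lower at a Benjamini-Hochberg adjusted p under 0.05 in the edgeR quasi-likelihood test over all 14717 genes tested.

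MiR-34a guides repression by pairing of its seed, bases 2 to 8, with matching letters in the 3′ untranslated region of a messenger RNA. The mature sequence (RefSeq, GRCm38.p6, chr4:150068473-150068494, plus strand) is shown first because its seed, in capitals, sets the letters searched, CACTGCC on the transcript strand. The stretches under it hold that match, in capitals, in the longest coding transcript of 5 of the 6 genes with one in GENCODE M21 (GRCm38); that of Pdgfrb is not printed.
mmu-miR-34a-5p: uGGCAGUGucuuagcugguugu
Bgn, nearer the stop codon, chrX:73494881-73494903, plus strand: tattaactCACTGCCccaccaca
Bgn, farther from the stop codon, chrX:73495083-73495105, plus strand: atagagcaCACTGCCaccgccat
Loxl1, chr9:58287863-58287885, minus strand: ccacctgcCACTGCCaccctgga
Loxl2, chr14:69693422-69693444, plus strand: tccccagaCACTGCCgtgtgtcc
Fbln5, chr12:101750706-101750728, minus strand: gcctctgaCACTGCCtttcacca
Itga5, chr15:103344291-103344313, minus strand: accccaccCACTGCCcccactga

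A match was present in 6 of the 34 tested genes (17.6%), Pdgfrb among them, against 2268 of 13385 tested genes with an annotated 3′ untranslated region (16.9%). The median length of that region was 1155 bases in the 34 genes and 1116 bases in all. None of the 6 was called higher in the knockout: 3 were lower (Loxl2, Pdgfrb and Bgn) and 3 were not called (Loxl1, Fbln5 and Itga5), with log2 fold changes of -1.30 to 0.10. At an unadjusted p under 0.05 the count of higher genes was also 0, with edgeR and with DESeq2. Across all tested genes with this region annotated, 29.2% of those with a match and 26.9% of those without were called higher, and 25.2% and 24.9% lower. The median length of the region was 2266 bases with a match and 937 bases without, so these groups differ in more than the match. A match is a description of letters and not a shown target site.

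Genes that fell outnumbered those that rose. Of the 34 tested genes, 17 were lower and 8 higher in the knockout, and 9 were not called. That is 73.5% called, against a background of 50.5% of all genes tested. The share lower was 50.0%, against 24.0% of all genes, and the share higher was 23.5%, against 26.5%. As the genes were chosen with earlier results known, these shares describe the set and are not a test of it. A fall of at least 2-fold was seen in 9 genes (background 2.70%), and a rise of at least 2-fold in S100a4 alone (background 7.60%). The median log2 fold change of the 34 genes was -0.16, and that of all tested genes 0.01. The libraries of the genotypes did not overlap in 24 genes, 16 of them below and 8 above wild-type (background 56.0% in all, 26.9% below and 29.2% above). In bulk RNA, fewer cells of a type and less RNA per cell cannot be told apart, so a lower level in a culture with feeders does not say which cells changed.

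**Figure D1:**
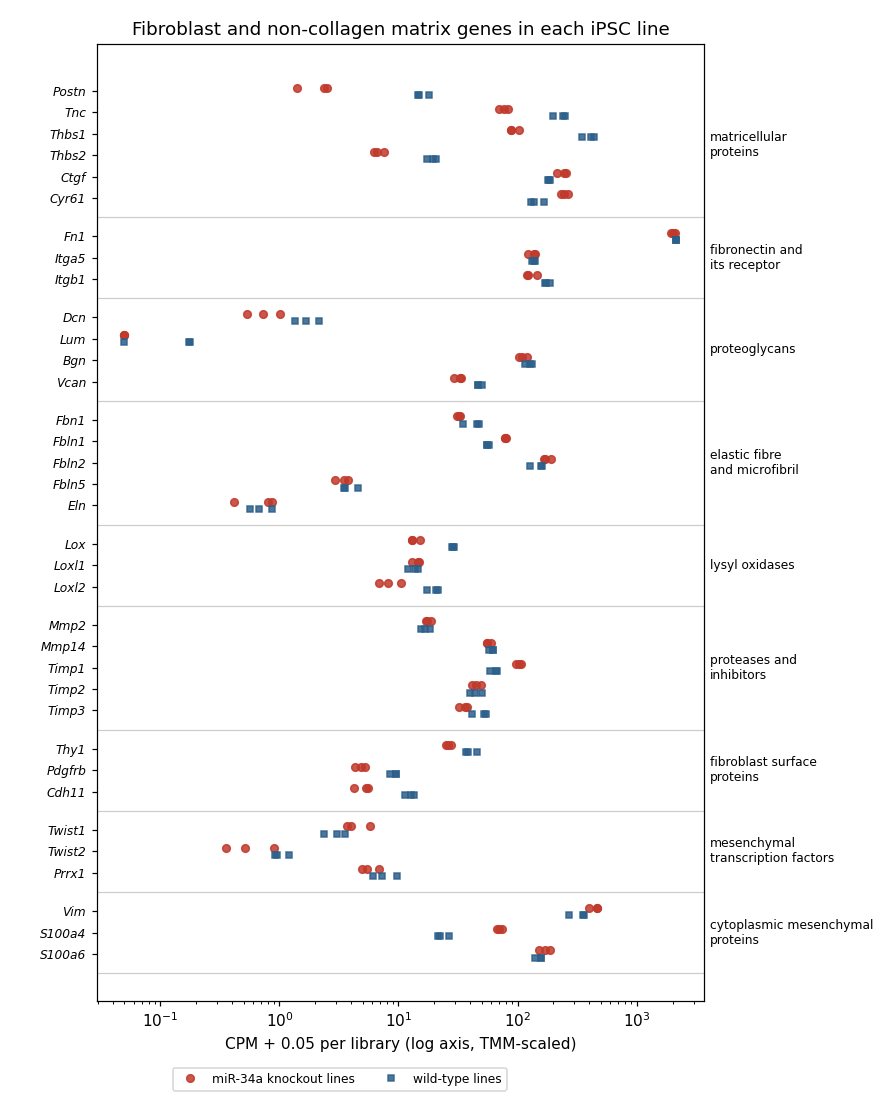
Level of each of the 35 genes in each library, as CPM plus 0.05 on a log axis, with the genes grouped by role. Circles are the 3 miR-34a knockout lines and squares the 3 wild-type lines; Postn, Tnc, Thbs1, Thbs2, Lox and Cdh11 lie apart to the left in the knockout, while S100a4 and Timp1 lie to the right, and Lum lies at the left edge, at or near 0 in both.

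Matricellular proteins held the largest falls, and split into 4 genes that fell and 2 that rose. Postn encodes periostin, a matrix protein of fibroblasts and of the embryonic mesenchyme. It had 2.33, 1.36 and 2.45 CPM in knockout lines 1 to 3, against 14.6, 17.9 and 14.7 CPM in wild-type lines 1 to 3. Every knockout line lay below every wild-type line, and the level was 8.16-fold lower (log2 fold change by edgeR -3.03, SE 0.171, adjusted p = 6.0e-11).

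Thbs1 encodes thrombospondin-1, an inhibitor of blood vessel growth that also activates latent TGF-beta. It had 103, 87.7 and 88.8 CPM in knockout lines 1 to 3, against 412, 440.3 and 349.5 CPM in wild-type lines 1 to 3. The lowest wild-type line was still far above the highest knockout line, and the gene fell by 2.10 on the log2 scale (SE 0.0917, edgeR adjusted p = 1.2e-08). Its relative Thbs2 followed at a lower level, with 7.44, 6.61 and 6.12 CPM in knockout lines 1 to 3, against 19.6, 20.7 and 17.2 CPM in wild-type lines 1 to 3. The groups did not overlap, and the log2 fold change was -1.48 (SE 0.111, edgeR adjusted p = 1.7e-09).

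Tnc encodes tenascin-C, a large matrix protein of wounds and of embryonic tissue that weakens the hold of cells on fibronectin. It had 83.1, 76.7 and 69.1 CPM in knockout lines 1 to 3, against 249, 241 and 197 CPM in wild-type lines 1 to 3. It fell 2.98-fold without overlap (log2 fold change by edgeR -1.58, SE 0.0970, adjusted p = 5.5e-07).

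Ctgf and Cyr61, the founding CCN matricellular proteins and widely used readouts of YAP and TEAD activity, went the other way. Cyr61 (current symbol Ccn1) had 244, 264 and 233 CPM in knockout lines 1 to 3, against 129, 137 and 167 CPM in wild-type lines 1 to 3. It rose 1.71-fold without overlap (log2 fold change by edgeR 0.78, SE 0.0917, adjusted p = 5.9e-05). Ctgf (Ccn2) had 256, 245 and 213 CPM in knockout lines 1 to 3, against 179.5, 186 and 182 CPM in wild-type lines 1 to 3. The rise was smaller, 1.31-fold, and again without overlap (log2 fold change by edgeR 0.39, SE 0.0609, adjusted p = 2.8e-05). The antisense transcript Gm15270 overlaps 23.2% of the exon length of Ctgf, and held 32 counts over the knockout and 22 over the wild-type libraries. How reads in the overlap were counted is unstated, so these counts do not show whether it affected Ctgf.

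**Figure D2:**
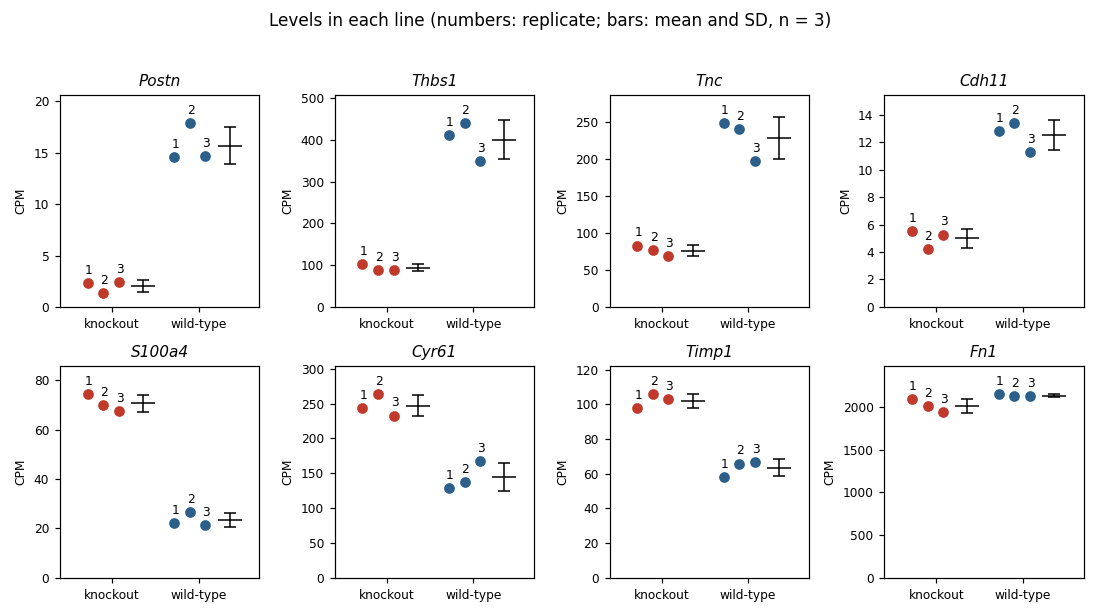
CPM of 8 genes in each line, with knockout lines on the left and wild-type lines on the right of each panel; numbers mark the replicate, and the cross bars give the mean and SD (n = 3). Postn, Thbs1, Tnc and Cdh11 are lower in every knockout line, S100a4, Cyr61 and Timp1 higher in every knockout line, and Fn1 lies between 1938 and 2154 CPM in all 6.

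TEAD factors bind the letters GGAATG on either strand. A promoter window, 250 bases before to 50 after an annotated start (RefSeq, GRCm38.p6), was given for 22 of the 35 genes, with Ctgf not among them. These genes have 26 windows, and the motif was present in 4 of them (15.4%), those of Cyr61, Timp1, Prrx1 and Itgb1, against 14.7% of all 32851 windows and 12.5% of the 13935 windows of tested genes. Those of a gene that rose and of a gene that fell are shown, with the motif or its complement CATTCC in capitals.
Cyr61, chr3:145649936-145650235, minus strand: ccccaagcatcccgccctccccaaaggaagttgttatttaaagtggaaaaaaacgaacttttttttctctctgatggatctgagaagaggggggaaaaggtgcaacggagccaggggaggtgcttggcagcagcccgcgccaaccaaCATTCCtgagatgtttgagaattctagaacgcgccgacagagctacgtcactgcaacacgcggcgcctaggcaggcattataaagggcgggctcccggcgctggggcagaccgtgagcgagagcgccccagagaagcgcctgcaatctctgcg
Itgb1, chr8:128685404-128685703, plus strand: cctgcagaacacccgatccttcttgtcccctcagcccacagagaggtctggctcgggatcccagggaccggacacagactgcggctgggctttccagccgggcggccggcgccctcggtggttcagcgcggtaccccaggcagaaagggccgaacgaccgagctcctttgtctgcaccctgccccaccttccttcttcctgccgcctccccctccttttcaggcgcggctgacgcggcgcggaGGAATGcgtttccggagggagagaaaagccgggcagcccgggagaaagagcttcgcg
Of the 4 genes with the motif, Cyr61 and Timp1 rose and Prrx1 and Itgb1 fell. The CArG box, the site of serum response factor, was searched on both strands and was present in 0 of the 26 windows of these 22 genes. It stands in 1.63% of all windows and 1.3% of those of tested genes. At shares this small, 26 windows are too few for their 0 to mean a lack of the motif.

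Fibronectin was the most abundant of the 35 genes, and its level was close between the genotypes. Fn1 had 2095, 2011 and 1938 CPM in knockout lines 1 to 3, against 2154, 2125 and 2124 CPM in wild-type lines 1 to 3. The libraries did not overlap, but the log2 fold change of -0.08 (SE 0.0542) was not called (edgeR adjusted p = 0.21). With the trend of each library on transcript GC content removed, Fn1 was called lower, at -0.17 (edgeR adjusted p = 0.008). Per kilobase of exon, Fn1 also led the set, at 172 CPM per kb in knockout lines and 183 CPM per kb in wild-type lines.

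The fibronectin receptor is the integrin of Itga5 and Itgb1, and only the shared beta chain was called. Itgb1 had 122, 119 and 146 CPM in knockout lines 1 to 3, against 173, 186 and 169 CPM in wild-type lines 1 to 3. It fell without overlap (log2 fold change by edgeR -0.45, SE 0.0691, adjusted p = 3.8e-05). Itga5, which pairs with it and with no other beta chain, had 139.6, 138 and 123 CPM in knockout lines 1 to 3, against 136, 139.9 and 132 CPM in wild-type lines 1 to 3. These groups overlap, and the log2 fold change was -0.02 (SE 0.0569, edgeR adjusted p = 0.79), though with library GC trends removed Itga5 was called lower, at -0.15 (edgeR adjusted p = 0.022).

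The 3 tested proteoglycans, matrix proteins that carry long sugar chains, all fell, by unequal amounts. Vcan, which encodes the large hyaluronan-binding versican, had 32.6, 29.4 and 33.2 CPM in knockout lines 1 to 3, against 50.1, 46.7 and 46.1 CPM in wild-type lines 1 to 3. It fell without overlap (log2 fold change by edgeR -0.60, SE 0.0705, adjusted p = 8.6e-07). Dcn, which encodes decorin, a collagen-binding protein abundant in most fibroblasts, had 0.962, 0.679 and 0.490 CPM in knockout lines 1 to 3, against 1.31, 1.62 and 2.12 CPM in wild-type lines 1 to 3. It rested on 42 counts over the knockout and 78 over the wild-type libraries and was called lower (log2 fold change by edgeR -1.13, SE 0.30, adjusted p = 0.004).

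Bgn, the X-linked gene of biglycan, had 109, 119 and 102 CPM in knockout lines 1 to 3, against 126, 131 and 115 CPM in wild-type lines 1 to 3. The groups overlap, and the call was narrow (log2 fold change by edgeR -0.17, SE 0.0644, adjusted p = 0.038). It was lost on leaving out knockout replicate 1, knockout replicate 3 or wild-type replicate 1 (adjusted p = 0.11 each), without wild-type replicate 2 (adjusted p = 0.15), with limma voom (0.06) and with DESeq2 (0.062). Genes around Bgn moved otherwise: of 48 genes at 5 CPM or more within 2.5 Mb, 43 were higher and 0 lower in the knockout, with a median log2 fold change of 0.79.

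Elastic fibre genes were mixed. Fbln1, which encodes a fibulin that binds fibronectin, was the steadiest gene of the group, with 78.1, 78.1 and 80.2 CPM in knockout lines 1 to 3, against 55.5, 55.7 and 57.8 CPM in wild-type lines 1 to 3. It rose 1.4-fold without overlap (log2 fold change by edgeR 0.48, SE 0.0579, adjusted p = 1.2e-06). Fbn1, which encodes the microfibril protein fibrillin-1, had 32.6, 31.2 and 32.2 CPM in knockout lines 1 to 3, against 47.7, 46.0 and 34.8 CPM in wild-type lines 1 to 3. Wild-type line 3 stood close to the knockout lines, and the gene was called lower (log2 fold change by edgeR -0.42, SE 0.100, adjusted p = 0.003).

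Fbln2, a fibulin of basement membranes and elastic fibres, had 192, 171 and 167 CPM in knockout lines 1 to 3, against 157, 159.6 and 126 CPM in wild-type lines 1 to 3. It was called higher (log2 fold change by edgeR 0.26, SE 0.0906, adjusted p = 0.034), but the call was lost without knockout replicate 1 (adjusted p = 0.1), without knockout replicate 2 or 3 (0.06 each), without wild-type replicate 3 (0.059), with library totals only (0.06) and with library GC trends removed (0.24). The remaining pair was not called. Fbln5, needed for elastic fibre assembly, averaged 3.36 ± 0.432 CPM in knockout and 3.80 ± 0.608 CPM in wild-type lines (SD, n = 3 each), and Eln, which encodes elastin itself, averaged 0.643 ± 0.240 CPM in knockout and 0.653 ± 0.154 CPM in wild-type lines. The log2 fold changes were -0.15 (SE 0.177) for Fbln5 and 0.05 (SE 0.350) for Eln, and at about 0.65 CPM the depth leaves a wide range for Eln.

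Of the 3 lysyl oxidases, which cross-link collagen and elastin, Lox and Loxl2 fell and Loxl1 was not called. Lox had 15.2, 13 and 12.9 CPM in knockout lines 1 to 3, against 27.9, 29.0 and 28.6 CPM in wild-type lines 1 to 3. It fell 2.06-fold without overlap (log2 fold change by edgeR -1.05, SE 0.0862, adjusted p = 7.2e-09). Loxl2, whose product also acts on basement membrane collagen, had 8.15, 6.86 and 10.5 CPM in knockout lines 1 to 3, against 20.8, 21.6 and 17.4 CPM in wild-type lines 1 to 3. The fall was 2.46-fold, again without overlap (log2 fold change by edgeR -1.30, SE 0.130, adjusted p = 2.3e-07). Loxl1, which acts on elastin, averaged 14.1 ± 1.05 CPM in knockout and 13.4 ± 1.24 CPM in wild-type lines (SD, n = 3 each; log2 fold change by edgeR 0.10, SE 0.101, adjusted p = 0.41).

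Matrix proteases were not called, and their inhibitors, the TIMPs, went in different directions. Timp1 had 97.8, 106 and 103 CPM in knockout lines 1 to 3, against 58.1, 65.8 and 66.6 CPM in wild-type lines 1 to 3. It rose 1.62-fold without overlap (log2 fold change by edgeR 0.70, SE 0.0645, adjusted p = 3.8e-08). Timp1 is X-linked, and of 13 other genes at 5 CPM or more within 2.5 Mb, 10 were higher and 1 lower in the knockout, with a median log2 fold change of 0.68. Over the whole X, the median was 0.37 across 327 genes at that level, against -0.03 across 9945 autosomal genes. The part of this shift in the values of Timp1 and Bgn was not tested.

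Timp3, the TIMP that stays bound to the matrix, had 36, 37.5 and 32.0 CPM in knockout lines 1 to 3, against 52.4, 54.5 and 41.3 CPM in wild-type lines 1 to 3. It fell without overlap (log2 fold change by edgeR -0.46, SE 0.0945, adjusted p = 8.9e-04). Timp2 was not called, at 45.0 ± 3.64 CPM in knockout and 44.3 ± 5.21 CPM in wild-type lines (SD, n = 3 each; log2 fold change 0.04, SE 0.0823). The gelatinase gene Mmp2 and the membrane-anchored protease gene Mmp14, whose product activates the Mmp2 proenzyme together with Timp2, had log2 fold changes of 0.10 (SE 0.0917) and -0.10 (SE 0.0638). With library GC trends removed, Mmp14 was called lower, at -0.21 (edgeR adjusted p = 0.0081).

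Surface proteins of fibroblasts fell in all 3 cases. Cdh11, the cadherin of mesenchymal cells, had 5.52, 4.22 and 5.27 CPM in knockout lines 1 to 3, against 12.8, 13.4 and 11.3 CPM in wild-type lines 1 to 3. It fell 2.54-fold without overlap (log2 fold change by edgeR -1.34, SE 0.131, adjusted p = 7.9e-08). Pdgfrb, a receptor for platelet-derived growth factor on mesenchymal cells, had 5.17, 4.82 and 4.29 CPM in knockout lines 1 to 3, against 9.50, 9.50 and 8.43 CPM in wild-type lines 1 to 3. The log2 fold change was -0.91 (SE 0.128, edgeR adjusted p = 8.1e-06), with no overlap.

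Thy1, a surface glycoprotein used to sort fibroblasts and to mark cells that have not yet reprogrammed, had 26.0, 27.4 and 24.9 CPM in knockout lines 1 to 3, against 38.1, 45.4 and 37.1 CPM in wild-type lines 1 to 3. It fell by 0.59 on the log2 scale (SE 0.0801, edgeR adjusted p = 5.6e-06), again without overlap.

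The mesenchymal transcription factors were scarce and their calls were narrow. Twist1, a driver of epithelial to mesenchymal transition, had 3.95, 3.64 and 5.76 CPM in knockout lines 1 to 3, against 2.99, 3.50 and 2.32 CPM in wild-type lines 1 to 3. The groups did not overlap, and it was called higher (log2 fold change by edgeR 0.54, SE 0.197, adjusted p = 0.028). Its paralog Twist2 had 0.304, 0.464 and 0.857 CPM in knockout lines 1 to 3, against 0.901, 0.875 and 1.16 CPM in wild-type lines 1 to 3. It was called lower, on 26 counts over the knockout and 47 over the wild-type libraries (log2 fold change by edgeR -1.05, SE 0.363, adjusted p = 0.021). Prrx1, a homeobox gene of limb and facial mesenchyme, had 5.37, 4.89 and 6.86 CPM in knockout lines 1 to 3, against 7.17, 9.75 and 6.05 CPM in wild-type lines 1 to 3. The groups overlap, and it was also called lower (log2 fold change by edgeR -0.43, SE 0.166, adjusted p = 0.037).

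None of these 3 calls held in every setting. For Twist1 the adjusted p was 0.081 without knockout replicate 3, 0.062 without wild-type replicate 1, 0.14 without wild-type replicate 3, 0.1 with library GC trends removed and 0.07 with DESeq2. For Twist2 it was 0.12 without knockout replicate 1, 0.076 without knockout replicate 2, 0.082 without wild-type replicate 3 and 0.13 with DESeq2, and its antisense neighbour Gm29100, which overlaps 46.5% of its exon length, held 5 counts over the knockout and 2 over the wild-type libraries. For Prrx1 it was 0.11 without knockout replicate 1, 0.2 without knockout replicate 2, 0.075 without wild-type replicate 1, 0.15 without wild-type replicate 2, 0.14 with library GC trends removed and 0.077 with DESeq2.

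The cytoplasmic genes used as mesenchymal markers rose or were not called. S100a4, also known as fibroblast-specific protein, encodes a calcium-binding protein linked to cell motility. It had 74.5, 69.9 and 67.7 CPM in knockout lines 1 to 3, against 22.2, 26.7 and 21.4 CPM in wild-type lines 1 to 3. This was the largest rise of the set, 3.08-fold without overlap (log2 fold change by edgeR 1.62, SE 0.0771, adjusted p = 2.6e-12). An annotated gene on the same strand, Gm42674, covers 51.7% of its exon length and matched no gene row of the count table analysed here.

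S100a6, a relative in the same chromosome 3 cluster, had 188, 171 and 151 CPM in knockout lines 1 to 3, against 158, 156 and 139.6 CPM in wild-type lines 1 to 3. The groups overlap, and it just missed the threshold (log2 fold change by edgeR 0.18, SE 0.0719, adjusted p = 0.051); without knockout replicate 3 the adjusted p was 0.0015. Vim, which encodes the intermediate filament vimentin, had 468, 465 and 397 CPM in knockout lines 1 to 3, against 355, 359 and 271 CPM in wild-type lines 1 to 3. It was called higher without overlap (log2 fold change by edgeR 0.44, SE 0.124, adjusted p = 0.026), and the call was lost without knockout replicate 1 (adjusted p = 0.077) and without knockout replicate 2 (0.093).

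**Figure D3:**
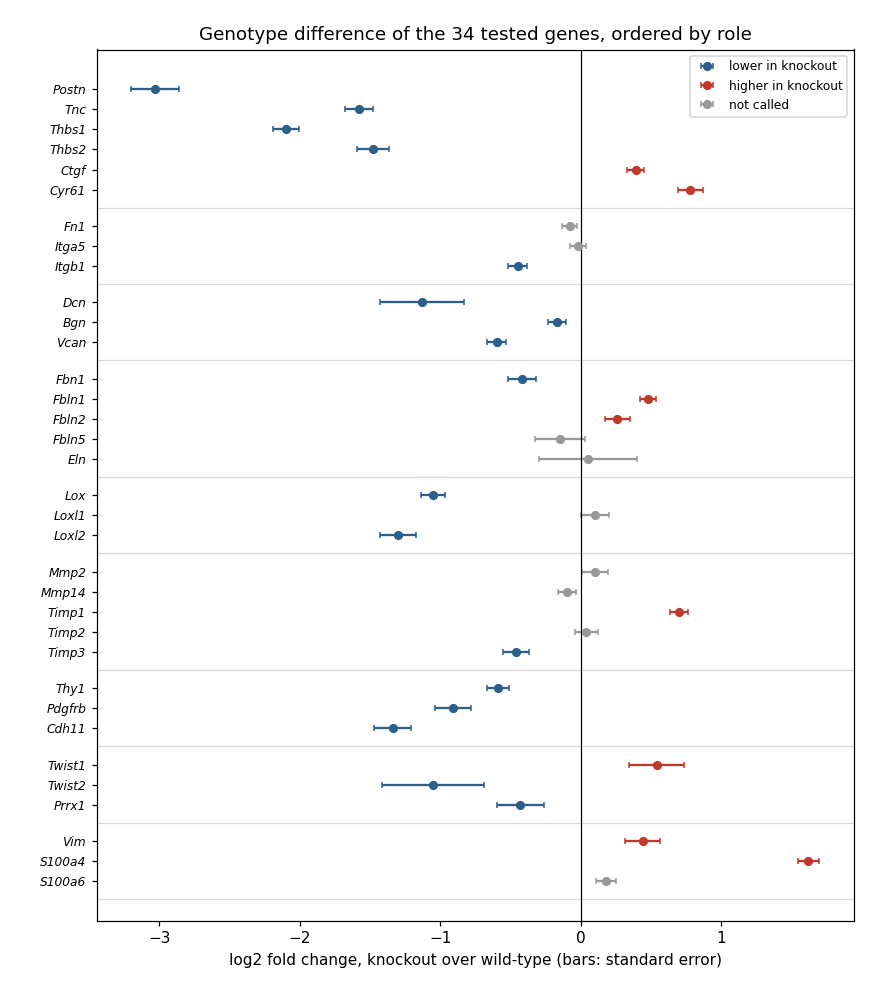
Log2 fold change of knockout over wild-type for the 34 tested genes, ordered by role, with bars of 1 standard error; filled circles in blue are called lower, in red called higher and in grey not called. The 17 lower genes reach -3.03 at Postn, and the 8 higher genes reach 1.62 at S100a4.

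Levels per length spanned a wide range, and the order differed between the genotypes. In the knockout lines Fn1 was followed by S100a6 at 124 CPM per kb, Cyr61 at 122, S100a4 at 121 and Timp1 at 115. In the wild-type lines the same genes stood at 111 CPM per kb for S100a6, 71.6 for Cyr61, 40.2 for S100a4 and 71.5 for Timp1. These 4 neighbours lay close together in the knockout order, and their coefficients of variation over lines ran from 4.11% for Timp1 to 10.7% for S100a6. Whether their levels differ from each other was not tested. At the other end Lum, Eln and Twist2 averaged under 1 CPM in both genotypes. Lengths are all annotated exons merged, which understates genes with many isoforms.

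The genes also varied together between lines of a genotype. Wild-type line 3 had the lowest wild-type level in 25 of the 34 tested genes, and wild-type line 2 the highest in 21, where line 3 was lowest in 35.6% and line 2 highest in 33.2% of all tested genes. Knockout line 3 had the lowest knockout level in 20 of the 34, against 40% of all tested genes, and knockout line 1 the highest in 18, against 31.8%. The summed level of Col1a1, Col1a2 and Col3a1 was 315, 308 and 246 CPM in knockout lines 1 to 3, against 498, 500 and 348 CPM in wild-type lines 1 to 3, so it was lowest in the same lines. Among genes at 5 CPM or more, the median coefficient of variation over lines was 8.09% in knockout lines and 9.30% in wild-type lines for 29 of the 35 genes, against 5.91% and 5.50% for all 10312 genes at that level.

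Feeder fibroblasts make most of these transcripts too, so 7 of the genes were summed as fibroblast markers, a choice made with their changes known. Postn, Thy1, Dcn, Lum, Pdgfrb, Twist2 and Prrx1 together stood at 39.6 to 40.1 CPM in the knockout lines and 69.7 to 85.1 CPM in the wild-type lines. All 6 of these that were tested were called lower, but by unequal amounts, with log2 fold changes of -3.03 to -0.43, and Thy1 alone gave 24.9 to 27.4 CPM of the sum in knockout and 37.1 to 45.4 CPM in wild-type lines. S100a4 and Vim, also used as fibroblast or mesenchymal markers, are not in that sum and rose. As the genes of the sum were picked with their falls known, its lower level and the 6 lower calls are not an independent result. Of all 34 tested genes of the set, 17 were lower and 8 higher. All 35 genes summed to 4191 to 4567 CPM in knockout and 4516 to 4880.1 CPM in wild-type lines, which overlap. Fn1, which was not called, alone gave 1938 to 2095 CPM of that total in knockout and 2124 to 2154 CPM in wild-type lines. Of 16 fibroblast markers outside the set, 14 were tested, 5 were higher and 4 lower, with a median log2 fold change of 0.07. Their summed level was 559 to 676 CPM in knockout and 549 to 744 CPM in wild-type lines, but large terms of it moved in opposite directions. Lrp1 averaged 226 CPM in knockout and 108 CPM in wild-type lines, and Col1a1 averaged 127 CPM in knockout and 253 CPM in wild-type lines. With 1 library left out, 3 to 6 of these markers were called higher and 3 to 6 lower. Without wild-type replicate 1, 3 were called higher. Without wild-type replicate 3, Col1a2 (-0.26, edgeR adjusted p = 0.02) and Col6a3 (-0.23, edgeR adjusted p = 0.026) were also called lower. Among the 16 markers the chemokine gene Cxcl12 fell by 2.11 and the secreted protein gene Ccdc80 fell by 0.97. The growth factor receptor gene Pdgfra, also a primitive endoderm gene, rose by 1.98 on the log2 scale. The fibroblast marker Fap was at or near 0, with 0 counts over the knockout and 5 over the wild-type libraries. No library of fibroblasts alone was used here, and the part of feeder or unreprogrammed fibroblasts in the changes was not tested.

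Primitive endoderm, the embryonic layer that also lays down matrix, was checked in the same way. Of 15 markers, 13 were tested, and 10 were higher and 0 lower in the knockout (76.9% higher, against 26.5% of all genes tested). Their summed level was 924 to 958 CPM in knockout and 686 to 743 CPM in wild-type lines. Sparc, Lama1, Col4a1 and Col4a2 gave most of that sum, and of these only Sparc was called. The markers Foxa2 and Ttr were too low to test, with 19 and 2 counts over the knockout and 29 and 2 counts over the wild-type libraries. The regulator Gata4 averaged 6.10 ± 0.419 CPM in knockout and 1.79 ± 0.188 CPM in wild-type lines (SD, n = 3 each), and the matrix gene Sparc averaged 542 CPM in knockout and 369 CPM in wild-type lines. Of 10 pluripotent cell markers, 7 were higher and 3 lower; the epithelial adhesion genes Cdh1 and Epcam fell by 0.72 and 0.70 on the log2 scale, while Tdgf1 rose by 0.56. Of 7 endothelial markers 5 were tested, and Tie1, Tek and Vwf were higher (60.0%, against 26.5% of all genes tested) and Kdr lower, with overlapping groups for Kdr. Tie1 averaged 19.7 ± 1.02 CPM in knockout and 0.332 ± 0.253 CPM in wild-type lines (SD, n = 3 each). Among 6 macrophage markers Cd68 was higher and the other 5 were too low to test. The part of these cell types in the changes was not tested.

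**Figure D4:**
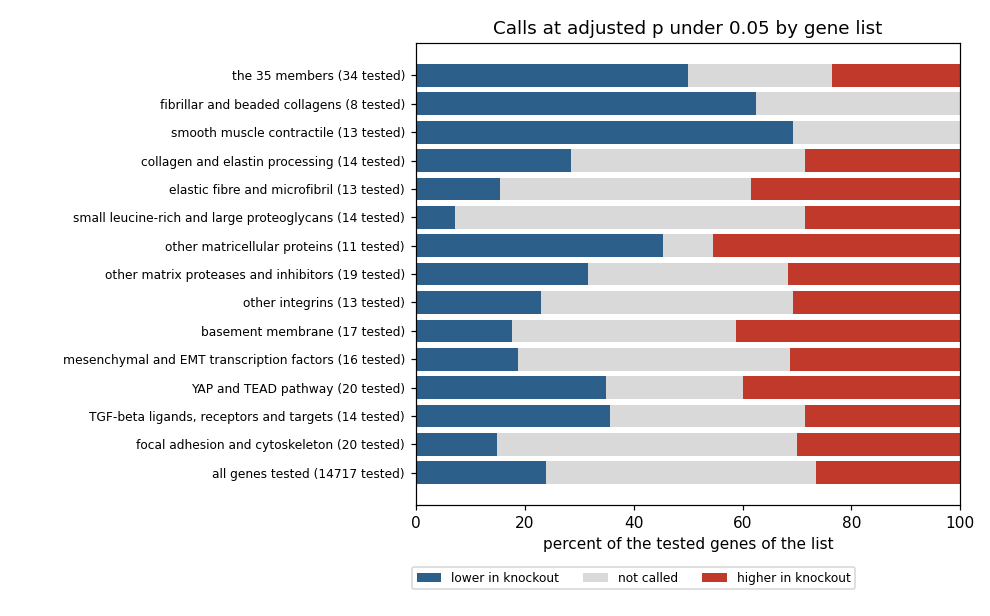
Share of the tested genes of each list called lower (left), not called (middle) or called higher (right) in the knockout at adjusted p under 0.05. The 35 genes described here, the collagens and the smooth muscle genes have the largest shares lower among the lists shown, and all genes tested stand at 24.0% lower and 26.5% higher.

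Other genes of the matrix gave the setting for these values. Of 8 fibrillar and beaded collagens, 5 were lower and 0 higher (median log2 fold change -0.59): Col3a1 fell by 1.48, Col5a1 by 0.74 and Col6a2 by 0.45, while Col1a2 was at -0.10 (edgeR adjusted p = 0.68). Col1a1 averaged 127 ± 18.3 CPM in knockout and 253 ± 48.6 CPM in wild-type lines (SD, n = 3 each) and was called lower (log2 fold change -0.99, edgeR adjusted p = 0.014), except without knockout replicate 2 (0.059). Without wild-type replicate 3, all 8 collagens were called lower. Of 13 tested smooth muscle contractile genes, 9 were lower and 0 higher (median -1.07), with Acta2 and Tagln, which encode smooth muscle actin and transgelin, each lower by 1.81 (log2 fold change -1.81) and Tpm1 at -1.21.

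Enzymes that process collagen and elastin were split, 4 higher and 4 lower of 14, with P4ha2, a prolyl hydroxylase subunit, at 1.51, P4ha3 at -1.31 and Loxl3 at -0.57. Of 13 other elastic fibre genes 5 were higher, as Emilin2 (1.7) and Ltbp3 (0.67), and 2 lower, as Efemp1 (-1.30). Of 14 other proteoglycans 4 were higher, among them the glypican gene Gpc4 (0.86), Acan (0.99) and Sdc2 (0.73), and 1 lower. Other matricellular genes were called in 10 of 11 cases, 5 in each direction, with Spp1, Sparc and Tnxb at 0.78, 0.55 and 3.75. The value of Tnxb rested on 196 counts over the knockout and only 12 over the wild-type libraries. Among the 5 lower genes, Wisp2 (current symbol Ccn5) was at -2.15. Proteases and inhibitors outside the set stood at 6 higher and 6 lower of 19, with Mmp17 at 1.25 and Adamts9 at 1.12.

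On the side of adhesion and signalling, the lists also ran in both directions. Other integrins had 4 higher and 3 lower of 13, led by Itgb4 (1.45), Itga3 (-0.62) and Itga1 (-1.61). Basement membrane genes had 7 higher and 3 lower of 17, with Lama3 at 0.90 and Nid1 at 0.55. Focal adhesion and cytoskeleton genes had 6 higher and 3 lower of 20, with Cav1 at 1.42, Anxa2 at 1.02 and Zyx at -0.61. Genes of the YAP and TEAD pathway had 8 higher and 7 lower of 20 (median -0.02): the kinase gene Lats2 rose by 1.31, Axl by 0.74 and the co-activator gene Wwtr1 by 0.58, while Yap1 fell by 0.40.

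TGF-beta genes had 4 higher and 5 lower of 14, with Tgfbr3 at 1.44, Pmepa1 at 0.80 and Smad7 at 0.70. The ligand genes Tgfb1 (-0.60), Tgfb2 (-1.30) and Tgfb3 (-0.49) were among those called lower. Of 16 other mesenchymal transcription factors 5 were higher, as Zeb1 (1.25) and Foxc1 (1.79), and 3 lower, as Heyl (-2.12). Small counts moved with single libraries and with the setting. The other elastic fibre genes called higher numbered 3 without knockout replicate 1 or 2 or wild-type replicate 1 or 3, and those called lower 1 without knockout replicate 2 or 3 or wild-type replicate 1 or 2. The higher mesenchymal factors numbered 3 without knockout replicate 1 or wild-type replicate 1 or 3. The lower focal adhesion genes numbered 6 without wild-type replicate 3, and the lower proteoglycans 0 without knockout replicate 2 or wild-type replicate 2 and 2 without wild-type replicate 3. With library GC trends removed, the other proteoglycans stood at 3 higher and 3 lower: Sdc1 was no longer called (edgeR adjusted p = 0.21), and Gpc1 (-0.15, adjusted p = 0.046) and Sdc3 (-0.30, adjusted p = 0.0063) were called lower. In that setting 3 other elastic fibre genes were higher, and 5 other integrins and 5 focal adhesion genes were lower. With DESeq2, 2 other elastic fibre genes, 2 mesenchymal factors and 3 proteases or inhibitors were called higher, and 1 other elastic fibre gene and 0 proteoglycans lower (Gpc3 at adjusted p = 0.051).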

How the data were processed

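Gene counts of 6 poly(A) RNA-seq libraries, 3 miR-34a knockout and 3 wild-type iPSC lines, were used. The deposited table holds raw counts per gene and repeat family; the tools TopHat2 2.0.11 and featureCounts 1.4.5 and the build mm10 stand in the submitters' processing notes. Counting options, strand included, are unstated, although the labels call the libraries strand-specific. The 6 columns of a second run's table carry names that no label matches and were not used. The 902 repeat rows (5.4% to 6.16% of counts) were left out of library sizes and tests.

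Symbols, coordinates, exon lengths and transcript GC came from GENCODE M21 (40254 of 41388 genes matched); older symbols were matched through RefSeq synonyms. The test was that of edgeR 4.0.16 under R 4.3.3 (filterByExpr, TMM, glmQLFit with robust estimation, glmQLFTest, two-sided, no covariate), with Benjamini-Hochberg adjustment over 14717 genes. SE is the log2 fold change over the square root of F. The steps were tested on simulated data with 200 changed genes, a single dispersion for all genes and no GC trend. That setting is simpler than these data, so it checks the steps and not the calls made here. Each library counted as 1 replicate because it came from its own line. Libraries of a genotype differed beyond sampling noise (chi-square per degree of freedom 2.25 to 20.0, a value that also depends on depth). That excess does not show that the lines are independent. In the shallowest library 3 counts correspond to 0.375 CPM. P values measure the genotypes against the spread of these lines only; which lines share an embryo is unstated.

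The members and lists were chosen with earlier results of these data known. Named genes are all members, up to 3 tested genes with the smallest p of each list, and Col1a1, Col1a2, Col3a1, Yap1, Wwtr1, Pou5f1, Nanog and Cdh1; other names were chosen after their values were seen. Some genes that this rule names are not reported here. Alternatives were DESeq2 size factors, library totals only, DESeq2 1.42.0, limma 3.58.1 voom, no filter, at least 1 CPM in 3 libraries, a replicate block, library GC trends removed, both together, and each library left out.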

Additional observations from a re-analysis of the deposited data

How the results depend on the processing

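Over 15 alternatives the number of the 34 genes called higher ranged from 6 to 9 and the number called lower from 14 to 19, against 8 and 17. Leaving out 1 library gave 6 to 8 higher and 14 to 16 lower; over all genes it gave 3274 to 4146 higher and 2844 to 3839 lower. Of the 25 called genes, 19 were called in the same direction in every alternative that could test them, 14 lower and 5 higher. The other 6 were Bgn, Fbln2, Twist1, Twist2, Prrx1 and Vim. No alternative turned the direction of a called gene. Signs turned for genes that were not called: Eln was at -0.012 with the replicate block, -0.075 with library GC trends removed and -0.15 with both, and ranged from -0.12 to 0.35 with 1 library left out. With library GC trends removed, without and with the block, Loxl1 was at -0.03 and -0.062, Mmp2 at -0.021 and -0.02, and Timp2 at -0.052 and -0.086. With 1 library left out, Timp2 ranged from -0.035 to 0.11 and Itga5 from -0.05 to 0.027. The cause was not tested. The labels speak of 3 pairs but do not say that equal numbers mark a pair, so the main fit has no block. Same-numbered libraries of the genotypes deviated with correlations of 0.088, -0.02 and 0.11, and other-numbered ones with -0.116 to 0.063. Deviations over 3 lines are too few to settle whether the numbers mark pairs. The replicate block gave 9 higher and 17 lower members, with S100a6 added (edgeR adjusted p = 0.0036). Over all genes it gave 4054 higher and 3779 lower, against 3904 and 3529 in the main fit. Fold changes rose with GC content across 9945 autosomal genes (Spearman's rho 0.34, genes not being independent replicates), and the median GC was 48.4% in the genes called lower and 52.8% in those called higher; with GC trends removed the counts were 19 lower and 6 higher. Among the other lists, the block together with GC removal gave 8 collagens, 4 elastic fibre, 3 proteoglycan, 5 integrin, 5 basement membrane and 5 focal adhesion genes lower, and 3 elastic fibre and 3 mesenchymal factor genes higher; the block alone gave 6 focal adhesion genes lower. With at least 1 CPM in 3 libraries, 3 mesenchymal factor genes were higher. The shift in the median of all genes stayed within 0.01 in every setting. Depth limits Lum, Eln, Twist2 and Dcn, each averaging under 2 CPM.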

Other observations

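S100a4 lies in a cluster of S100 genes on chromosome 3, and the other members were looked at after the value of S100a4 was seen. In the knockout lines S100a1, S100a13 and S100a16 were also called higher, with log2 fold changes of 1.2 (SE 0.148), 0.96 (SE 0.135) and 1.29 (SE 0.151; edgeR adjusted p of 1.7e-06, 1.9e-04 and 9.0e-07). S100a16 averaged 9.09 ± 1.47 CPM in knockout and 3.92 ± 0.457 CPM in wild-type lines (SD, n = 3 each). The genes S100a3, S100a14, S100a10 and S100a11 were not called, at 0.46, 0.36, 0.06 and 0.28, and S100a5, S100a8 and S100a9 were too low to test. S100a11 was called higher with the replicate block (adjusted p = 1.1e-05).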
